A study of Homo sapiens with 6 samples.

Results

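The genes described here are the EGR and IER immediate-early genes together with the NAB corepressors and the ZFP36 mRNA-decay factors: EGR1, EGR2, EGR3, NAB1, NAB2, IER2, IER3, IER5, ZFP36 and ZFP36L1. They were chosen by gene symbol, with earlier results of these data known. They are 10 of the 27009 genes in the expression table, and each symbol matched 1 row. Expression was measured by RNA sequencing in 6 libraries labelled as Hep3B, a human hepatocellular carcinoma cell line. All 6 libraries came from cells whose endogenous PD-L1 gene (CD274) had been knocked out. 3 libraries (vector) came from such cells carrying the empty lentiviral vector, and 3 (nPD-L1) from such cells carrying a PD-L1 with a mutated stretch of amino acids that is held in the nucleus. The vector carries a CMV promoter and a puromycin resistance gene. The study describes the libraries as independent sequenced samples but does not say whether they came from separate cultures or clones, so the p-values measure the spread between these libraries, which may be technical. Values are scaled reads, the reads on a gene divided by a size factor for its library.

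Immediate-early genes are transcribed within minutes of a growth factor or stress signal, without new protein synthesis. The kinase ERK phosphorylates the ternary complex factors, which sit with the serum response factor (SRF) on a short AT-rich sequence, the CArG box, upstream of genes such as EGR1. EGR1, EGR2 and EGR3 are zinc-finger transcription factors that bind GC-rich sites, and NAB1 and NAB2 bind the EGR proteins and repress their activity. NAB2 is itself an EGR target and so closes a feedback loop. ZFP36 and ZFP36L1 act after transcription: they bind AU-rich elements in the 3′ untranslated region (3′ UTR) of short-lived mRNAs and recruit the CCR4-NOT deadenylase complex, which removes the poly(A) tail. IER2, IER3 and IER5 are short, rapidly induced genes; IER3 is linked to survival under stress and IER5 to the heat-shock factor HSF1.

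7 of the 9 members that could be tested were higher in nPD-L1 than in vector, 1 (IER5) was lower and 1 (ZFP36) was not called. The largest rise was in EGR2, 7.21-fold by the ratio of means. NAB2 rose 2.71-fold, IER3 and ZFP36L1 2.14-fold each and EGR1 1.84-fold, while NAB1 and IER2 rose 1.48-fold and 1.45-fold. EGR3 was too low to be tested. In such bulk libraries, a change in the share of cells that express a gene and a change in RNA per cell cannot be told apart. A gene was called when its limma adjusted p over the 15076 genes tested was under 0.05; by that rule 4.04% of all genes tested were higher and 0.922% lower. The median log2 fold change, nPD-L1 minus vector, was 0.87 over the 9 members and -0.02 over all genes tested.

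Some measurements bear on the labels. CD274 itself was not higher in the libraries labelled nPD-L1: it stood at 28.3, 38.4 and 47.8 scaled reads in vector and at 16.8, 19.2 and 30.9 in nPD-L1 (limma adjusted p = 0.338), so every direction given here rests on the labels. Among hepatocyte markers, ALB averaged 1.05 scaled reads in vector and was listed at 0 in all 3 nPD-L1 libraries, APOA1, APOB and TTR averaged under 2, SERPINA1 averaged 20.6 in vector and 19.1 in nPD-L1, and only FGB was abundant (1240 ± 290 in vector, SD, n = 3). These low values go against the label of a hepatocyte-derived line, and the line is called Hep3B here only as labelled. AFP, also on the hepatocyte marker list, had no row in the expression table and so could not be checked. The part of these measurements in the results was not tested. Blood markers (LYZ and PTPRC) summed to at most 5.65 scaled reads and endothelial markers (PECAM1 and VWF) to at most 6.06 in any library. The 3 fibroblast markers summed to 59.2 to 84.8 in vector and 452 to 494 in nPD-L1. This difference came from COL1A1, a collagen gene, while DCN and PDGFRB averaged at most 6.01 in either group. Whole reads were taken as recovered in 4 libraries, where they totalled 17427519 to 22253295 on genes.

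Promoter sequences of the members are shown because the CArG box is the element through which SRF acts. RefSeq (GRCh38.p14) windows from 250 bases before to 50 bases after a transcription start were available for 8 of the 10 members, in 13 windows; EGR3 and IER3 had none. Both strands were searched. A CArG box was found in 2 members, EGR1 and EGR2, beside 1.6% of all 27305 genes with a window. The stretches shown are the 250 bases before a start, 5′ to 3′, with the CArG boxes in capitals. That of EGR1 lies at chr5:138465229-138465478 on the plus strand and that of EGR2 at chr10:62816367-62816616 on the minus strand. EGR2 had other windows, at chr10:62818726-62819025 and chr10:62819118-62819417, in which no CArG box was found. Which start these cells use was not tested.
EGR1 promoter: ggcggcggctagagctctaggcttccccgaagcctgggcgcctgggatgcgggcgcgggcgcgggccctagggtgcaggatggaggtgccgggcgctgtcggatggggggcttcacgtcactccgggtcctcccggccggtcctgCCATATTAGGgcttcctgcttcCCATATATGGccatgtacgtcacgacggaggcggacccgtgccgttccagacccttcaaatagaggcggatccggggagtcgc
EGR2 promoter: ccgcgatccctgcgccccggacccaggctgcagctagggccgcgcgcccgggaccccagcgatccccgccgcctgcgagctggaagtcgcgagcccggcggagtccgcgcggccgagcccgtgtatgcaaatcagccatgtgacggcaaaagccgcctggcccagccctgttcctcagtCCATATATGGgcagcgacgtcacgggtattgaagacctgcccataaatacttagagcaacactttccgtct
The 2 boxes of EGR1 began 105 and 83 bases before its start, and the box of EGR2 began 71 bases before the start of the window shown. None of the 3 lay in an annotated exon. The letters CCATATATGG occurred in both genes.

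The EGR site, searched as GCGNGGGCG, was found in the windows of 5 members (EGR1, EGR2, NAB1, NAB2 and ZFP36L1), beside 11.2% of all genes. The cyclic AMP response element TGACGTCA was found in ZFP36L1 alone among the members, beside 2.25% of genes, and the AP-1 site TGANTCA in none, beside 9.37%. The match in NAB2, at chr12:57089042-57089070 on the plus strand, and that in ZFP36L1, at chr14:68793450-68793479 on the minus strand, are shown with the motif in capitals. Both lie before the start that the window is built on but inside an exon of another transcript of the same gene.
NAB2 EGR site: tgtgcgtcctGCGGGGGCGgaggcgcgga
ZFP36L1 cyclic AMP response element: agtggaatgagTGACGTCAcagccgcgctc
A match of letters is a description and not evidence that a factor binds there.

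AU-rich elements are shown because ZFP36 and ZFP36L1 bind them, also in their own mRNAs. The heptamer TATTTAT, in the longest coding transcript of each gene, occurred 4 times in the 3′ UTR of IER3 and of IER5, 3 times in that of ZFP36 and of ZFP36L1, 2 times in that of NAB1 and once in that of NAB2. It did not occur in the 3′ UTRs of EGR1, EGR2, EGR3 or IER2. Of the 12632 protein-coding genes tested that had an annotated 3′ UTR, 31.5% held it at least once and 12.8% at least 2 times, while 5 of the 10 members held it at least 2 times. These shares are not matched for length. Among tested genes with a 3′ UTR length within 1.5-fold, the share with at least 1 was 56.6% for IER5, 49.3% for NAB1 and 42% for ZFP36L1. It was 22.1% for NAB2, 21.7% for IER3 and 21% for ZFP36, and 28.1% to 54.3% for the members without the heptamer. Sites are shown on the coding strand with the heptamer in capitals, at chr6:30743648-30743676 (minus strand) for IER3, chr1:181092447-181092475 (plus) for IER5, chr19:39409189-39409216 (plus) for ZFP36 and chr14:68788336-68788364 (minus) for ZFP36L1, all in GRCh38.
IER3 site: aattaaTATTTATatgTATTTATgtacgt
IER5 site: cttccttTATTTATTTATTTATttaatta
ZFP36 site: cttTATTTATgacgacttTATTTATtct
ZFP36L1 site: ttatcaaaacgTATTTATtgccaaactat
In IER5 3 copies overlap in 1 run, whereas IER3 and ZFP36 each hold 2 separate copies within the stretch shown. The 4 genes shown did not move alike: IER3 and ZFP36L1 rose, ZFP36 was not called and IER5 fell.

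EGR1 (ENSG00000120738, chr5:138465490-138469315, plus strand), the best studied of the EGR factors, was measured at 351, 465 and 300 scaled reads in the vector libraries, in replicate order, and at 902, 559 and 597 in the nPD-L1 libraries. The groups did not overlap, but nPD-L1 replicate 1 stood well above the other 2 libraries of its group. The mean was 372 ± 84.5 in vector and 686 ± 188 in nPD-L1 (SD, n = 3). The log2 fold change was 0.87 (SE 0.20, 95% interval 0.42 to 1.32, limma adjusted p = 0.035). EGR1 varied more within groups than most genes of its level: its pooled within-group SD on the log2 scale, 0.347, was larger than that of 95.5% of the 4740 genes whose mean lay within 2-fold of its own. The call was lost without vector replicate 1 (adjusted p = 0.151), vector replicate 3 (0.0617), nPD-L1 replicate 1 (0.153) or nPD-L1 replicate 3 (0.0936), with a log2 fold change of 0.66 to 1.04 when each of the 6 libraries was left out in limma.

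EGR2 (ENSG00000122877, chr10:62811996-62919900, minus strand), the family member known for its role in nerve myelination and in lymphocytes, was measured at 17.2, 18.1 and 13.5 scaled reads in vector and at 134, 97.1 and 121 in nPD-L1. The nPD-L1 libraries were all far above the vector libraries. The mean was 16.2 ± 2.41 in vector and 117 ± 18.5 in nPD-L1, a log2 fold change of 2.77 (SE 0.25, 95% interval 2.21 to 3.33, limma adjusted p = 8.2e-05). The change was larger than that of 99.6% of the genes tested. The call held in all 17 alternatives, in which the log2 fold change was 2.27 to 3.02. Even so, EGR2 remained a low gene per length: it averaged 4.40 ± 0.654 scaled reads per kilobase in vector and 31.7 ± 5.02 in nPD-L1, where EGR1 averaged 119 ± 26.9 and 219 ± 59.8.

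EGR3 (ENSG00000179388, minus strand) was measured at 4.04, 2.26 and 0 scaled reads in vector and at 10.1, 7.08 and 3.86 in nPD-L1. The groups overlapped by the lowest nPD-L1 library, and the gene did not reach 10 scaled reads in 3 libraries, so it was not tested. In the 4 libraries with recovered reads these values were 2 and 0 reads in vector replicates 2 and 3 and 12 and 4 reads in nPD-L1 replicates 1 and 3. With no filter on low values the log2 fold change was 1.58 (SE 0.74, limma adjusted p = 0.438), and no difference was detectable at this depth.

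The related factor EGR4 also lay under the filter, at 5.61 ± 1.46 scaled reads in vector and 4.37 ± 2.98 in nPD-L1. WT1, a zinc-finger factor that binds similar sites, stood at 188 ± 22.5 and 252 ± 21.4 without overlap, but with a limma adjusted p of 0.19 and a log2 fold change of 0.42 it was not called. ZFP36L2 stood at 812 ± 87.4 and 920 ± 105 (adjusted p = 0.60). IER5L, a paralogue of IER5, rose from 363 ± 97.2 to 1627 ± 335, a log2 fold change of 2.17 (SE 0.20, limma adjusted p = 8.2e-05). It was the 1 gene called of the 3 tested among these 4 relatives of the members.

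**Figure D1:**
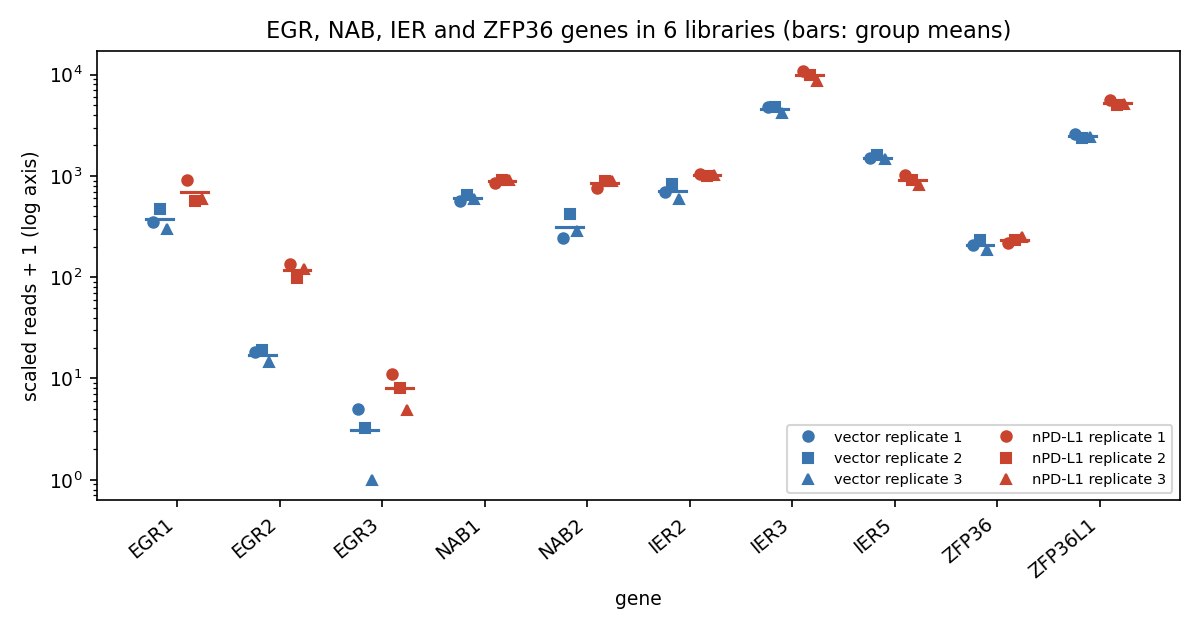
Scaled reads of the 10 members in each library (vertical axis, log scale of value + 1), with vector and nPD-L1 libraries as points (1 shape per replicate number) and the group means as horizontal bars. EGR2 separates the groups most clearly, with 13.5 to 18.1 in vector and 97.1 to 134 in nPD-L1, IER5 is lower in all 3 nPD-L1 libraries, and ZFP36 and EGR3 overlap.

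NAB2 (ENSG00000166886, chr12:57088894-57095476, plus strand), the corepressor that EGR factors induce, was measured at 240, 417 and 284 scaled reads in vector and at 755, 892 and 899 in nPD-L1. The groups were far apart, although vector replicate 2 stood above the other 2 vector libraries, as it did for EGR1. The mean rose from 314 ± 92.0 to 849 ± 81.4, a log2 fold change of 1.47 (SE 0.19, 95% interval 1.06 to 1.88, limma adjusted p = 0.00083), and the call held in all 17 alternatives. The last 69 bases of NAB2 overlap STAT6 on the other strand, which held 1665 to 1905 scaled reads, and the strand setting of the counting is not given in the sources used here, so reads in the overlap cannot be assigned with certainty.

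NAB1 (ENSG00000138386, chr2:190646746-190692766, plus strand), its paralogue, was measured at 561, 641 and 597 scaled reads in vector and at 844, 909 and 906 in nPD-L1. These libraries were tight within groups and did not overlap. AC006460.2 and AC006460.1, which overlap NAB1 on the other strand, held at most 21.0 and 1.68 scaled reads. The mean rose from 599.7 ± 40.2 to 886 ± 36.9, a log2 fold change of 0.56 (SE 0.10, 95% interval 0.33 to 0.80, limma adjusted p = 0.0094). The call was lost without vector replicate 1 (adjusted p = 0.069), nPD-L1 replicate 2 (0.0677) or nPD-L1 replicate 3 (0.0667), at log2 fold changes of 0.52 to 0.61. The log2 ratio of NAB1 to NAB2, of scaled reads with no correction for length, was 0.97 ± 0.31 in vector and 0.07 ± 0.08 in nPD-L1, a difference of -0.90. An exact two-sided permutation test gave p = 0.1, the smallest that 3 against 3 libraries allow (0.125 after adjustment over 5 ratios).

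IER3 (ENSG00000137331, chr6:30743199-30744554, minus strand) had the highest level of the members, also per length. It was measured at 4808, 4782 and 4208 scaled reads in vector and at 10810, 9939 and 8730 in nPD-L1. The lowest nPD-L1 library stood well above the highest vector library. The mean rose from 4599 ± 339 to 9827 ± 1045, a log2 fold change of 1.09 (SE 0.11, 95% interval 0.84 to 1.34, limma adjusted p = 0.00019), and the call held in all 17 alternatives. The antisense gene IER3-AS1, which overlaps it, held at most 3.86 scaled reads in any library.

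IER2 (ENSG00000160888, chr19:13150415-13154908, plus strand), a nuclear protein induced by serum, was measured at 696, 829 and 584 scaled reads in vector and at 1037, 1006 and 1010 in nPD-L1. The vector libraries were spread and the nPD-L1 libraries nearly equal, with no overlap. The mean rose from 703 ± 123 to 1018 ± 16.7, a log2 fold change of 0.55 (SE 0.13, 95% interval 0.26 to 0.84, limma adjusted p = 0.038). This was the call closest to the threshold among the members: the adjusted p was 0.073 without vector replicate 3 and 0.135 to 0.16 without vector replicate 1 or any 1 of the nPD-L1 libraries.

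IER5 (ENSG00000162783, chr1:181088712-181092899, plus strand) was the member that fell. It was measured at 1491, 1595 and 1466 scaled reads in vector and at 1023, 908 and 817 in nPD-L1. Every nPD-L1 library was below every vector library. The mean fell from 1517 ± 68.1 to 916 ± 103, a log2 fold change of -0.73 (SE 0.11, 95% interval -0.98 to -0.49, limma adjusted p = 0.0025). The call held whichever library was left out. The log2 ratio of IER2 to IER5 was -1.12 ± 0.19 in vector and 0.16 ± 0.14 in nPD-L1, and that of IER2 to IER3 was -2.72 ± 0.17 and -3.26 ± 0.14. The libraries did not overlap in either ratio, and both exact permutation tests gave the smallest possible p of 0.1 (0.125 adjusted).

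ZFP36L1 (ENSG00000185650, chr14:68787660-68796253, minus strand) was measured at 2580, 2385 and 2400 scaled reads in vector and at 5621, 5036 and 5098 in nPD-L1. Both groups were tight, and its within-group SD was larger than that of only 17.9% of genes of its level. The mean rose from 2455 ± 108 to 5252 ± 321, a log2 fold change of 1.10 (SE 0.10, 95% interval 0.89 to 1.31, limma adjusted p = 6.1e-05), and the call held in all 17 alternatives. ZFP36L1 is among the senescence genes that the study displayed from these same libraries, so its direction is not independent evidence.

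ZFP36 (ENSG00000128016, chr19:39406813-39409412, plus strand), also called tristetraprolin, was measured at 208, 234 and 184 scaled reads in vector and at 218, 231 and 247 in nPD-L1. The groups overlapped. The mean was 209 ± 24.9 in vector and 232 ± 14.7 in nPD-L1, and the log2 fold change of 0.16 had a 95% interval of -0.17 to 0.48 (SE 0.15, limma adjusted p = 0.70). The log2 ratio of ZFP36 to ZFP36L1 was -3.56 ± 0.19 in vector and -4.50 ± 0.17 in nPD-L1, a difference of -0.94 with no overlap (exact permutation p = 0.1, 0.125 adjusted). The fifth ratio, EGR1 to EGR3, differed by -0.71 (exact permutation p = 0.4).

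**Figure D2:**
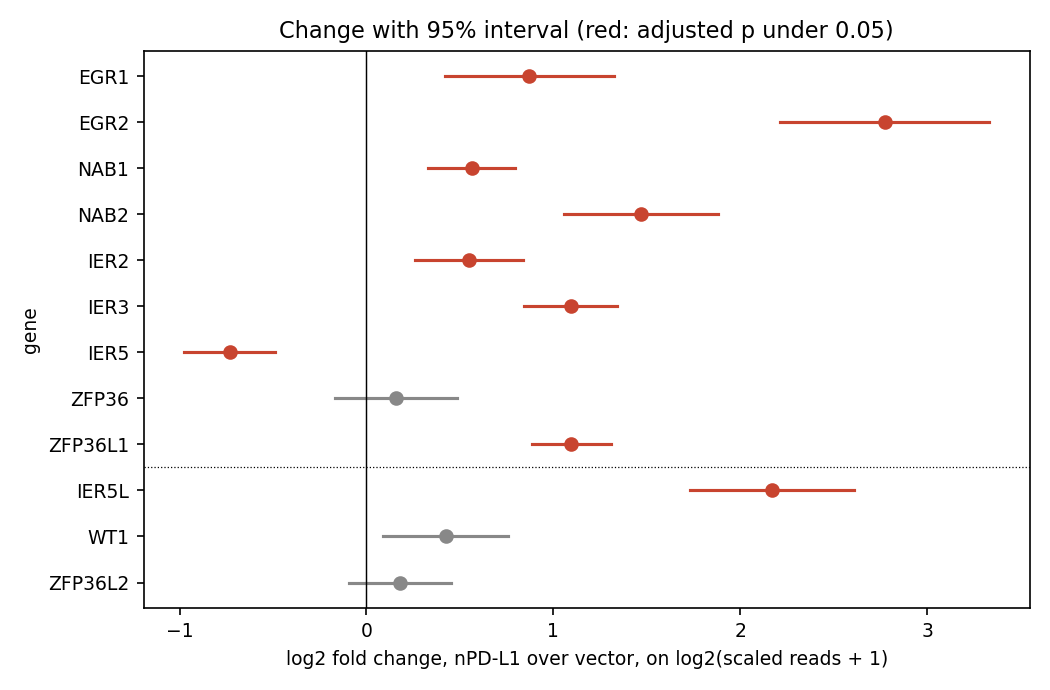
Log2 fold change (nPD-L1 minus vector, on log2(value + 1)) of the 9 tested members with 95% intervals from limma. 7 members lie above 0, from 0.55 for IER2 to 2.77 for EGR2, IER5 lies at -0.73, and the interval of ZFP36 spans 0.

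All 8 called members were free of overlap between groups, 7 above and 1 below, and 8 of 9 called in either direction stands beside 4.96% of all genes tested. The members were chosen with earlier results of these data known, so this contrast is a description and not a test. With a minimum of 2-fold added, EGR2, NAB2, IER3 and ZFP36L1 were called higher and none lower, beside 2.03% and 0.451% of all genes. Over all genes tested, 12% had every nPD-L1 library above every vector library and 8.54% had every one below. Per length, the order of levels in vector was IER3 (3392 ± 250 scaled reads per kilobase), ZFP36L1 (476 ± 21.0), IER5 (362 ± 16.3), IER2 (229 ± 39.9), NAB1 (123 ± 8.23), EGR1 (119 ± 26.9), NAB2 (104 ± 30.6), ZFP36 (104 ± 12.4), EGR2 and EGR3 (0.432 ± 0.417). NAB1, EGR1, NAB2 and ZFP36 did not differ beyond their SDs. In nPD-L1 the order was IER3 (7247 ± 770), ZFP36L1 (1018 ± 62.3), IER2 (331 ± 5.45), NAB2 (282 ± 27.1), IER5 (219 ± 24.6), EGR1 (219 ± 59.8), NAB1 (181 ± 7.55), ZFP36 (115 ± 7.30), EGR2 and EGR3 (1.44 ± 0.641). IER5 and EGR1 were level there, and NAB1 lay within the SD of EGR1. The members span a median of 5069 bases against 28470 for all genes tested, but EGR2 (107905 bases) and NAB1 (46021) are longer than that.

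Within the vector group, the deviations of the members had mostly 1 sign in 2 libraries. In vector replicate 3, 0 of the 9 tested members stood above the vector mean on the log2 scale, with a median deviation of -0.13, and in vector replicate 2, 8 of 9 did, with a median of 0.15. The counts were 5 of 9 in vector replicate 1 and 6, 3 and 4 of 9 in nPD-L1 replicates 1, 2 and 3. Over all genes tested the share above the group mean was 47.9% to 52.6% in each library. Among the 39 other immediate-early genes tested, 12 stood above the mean in vector replicate 3 and 11 in nPD-L1 replicate 3, against 20 to 25 in the other libraries. No label names a batch.

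**Figure D3:**
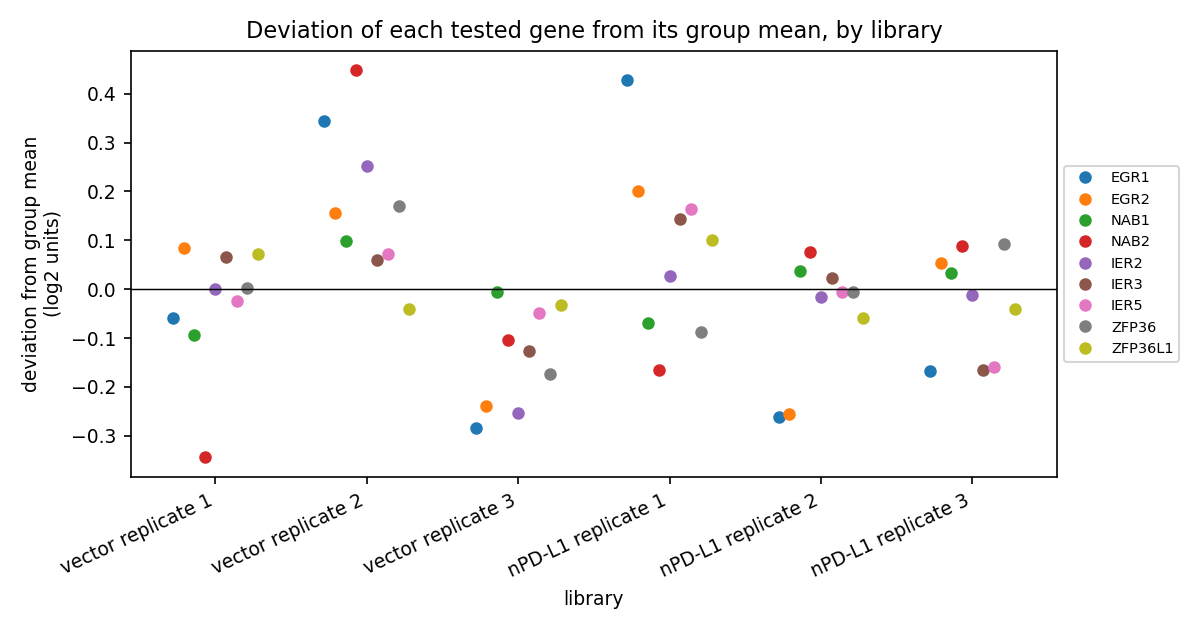
Deviation of each tested member from its group mean, on log2(value + 1), in each of the 6 libraries. All 9 members lie below the mean in vector replicate 3 and 8 of 9 above it in vector replicate 2.

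Most genes upstream of the members were not called. Of 19 tested genes for SRF, its cofactors, the ternary complex factors and the ERK cascade, 2 were higher (10.5%, beside 4.04% of all genes) and 0 lower, with a median log2 fold change of 0.04. MRTFA, an actin-regulated SRF cofactor, rose from 517 ± 31.0 to 1083 ± 170 scaled reads (log2 fold change 1.06, SE 0.13, limma adjusted p = 6e-04). ELK3, a ternary complex factor, rose from 1150 ± 157 to 2115 ± 125 (0.89, SE 0.12, adjusted p = 0.001). SRF itself stood at 1062 ± 64.7 and 1144 ± 53.2 and was not called (adjusted p = 0.70). RPS6KA2 of this list was too low to test.

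Other immediate-early genes went both ways. Of 39 tested, 13 were higher (33.3%) and 6 lower (15.4%), beside 4.04% and 0.922% of all genes, with a median log2 fold change of 0.18. The highest were the AP-1 subunit genes JUNB (660 ± 106 to 16200 ± 1811 scaled reads, log2 fold change 4.62) and FOSB (53.8 ± 6.81 to 472 ± 61.1, 3.11) and CTGF, a matricellular protein gene (2.17). The lowest were DUSP5 (-1.93) and DUSP4 (-1.14), which encode phosphatases that switch off MAP kinases, and the zinc-finger factor gene KLF6 (-0.92). FOS, a classic immediate-early gene, stood at 98.9 ± 41.5 and 100.5 ± 29.4 (log2 fold change 0.07, SE 0.31, limma adjusted p = 0.94).

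Genes with an EGR1 site described in their promoters were taken as a list of 18, which includes the member NAB2. 6 were higher (33.3%) and 2 lower (11.1%), beside 4.04% and 0.922% of all genes tested, with a median log2 fold change of 0.10. PDGFB (35.1 ± 12.0 to 1626 ± 116 scaled reads, log2 fold change 5.54) and PDGFA (57.8 ± 10.3 to 293 ± 31.9, 2.33), which encode the platelet-derived growth factor chains B and A, were among the higher ones. The lower ones were SPRY1, a feedback inhibitor of receptor kinase signalling (log2 fold change -2.05), and GDF15, a stress-induced secreted factor (-1.28). The other 10, the cytokine gene TGFB1 among them, were not called.

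Downstream of the ZFP36 factors, 1 of 18 tested genes for the CCR4-NOT complex, decapping and poly(A) handling was called, 5.56% beside 4.96% of all genes tested and so near the background: CNOT6L, a catalytic deadenylase subunit, rose from 361 ± 56.1 to 613 ± 34.1 scaled reads (log2 fold change 0.77, SE 0.13, limma adjusted p = 0.0063). The call on CNOT6L was the only one of this list, and without nPD-L1 replicate 1 or 3 the list had 0 calls. mRNAs described as ZFP36 targets through AU-rich elements went in both directions, with a median log2 fold change of -0.01. Of 19 tested, 3 were higher (15.8%) and 5 lower (26.3%), beside 4.04% and 0.922% of all genes tested. Higher were VEGFA (1.29), the member IER3 (1.09) and the kinase gene PIM1 (0.85). The lowest were the cytokine gene IL6 (-2.71) and the chemokine genes CXCL3 (-2.13) and CXCL2 (-1.86), and CCL20 and the cyclooxygenase gene PTGS2 were also lower. The calls of this list numbered 5 without vector replicate 1 or without nPD-L1 replicate 1.

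Heat-shock and stress genes were listed because handling of cells can induce immediate-early genes. Of 11 tested, 0 were higher and 1 lower (9.09%), beside 4.04% and 0.922% of all genes tested, with a median log2 fold change of -0.08. DDIT3, a factor of the unfolded protein response, fell from 747 ± 161 to 407 ± 80.2 scaled reads (log2 fold change -0.87, SE 0.18, limma adjusted p = 0.016), a call that was lost without vector replicate 1, nPD-L1 replicate 1 or nPD-L1 replicate 3. The inducible chaperone genes HSPA1A (0.03) and HSPA1B (-0.10) were not called. The part of handling in the members' values was not tested.

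As a description, the genes whose pattern over the 6 libraries was most like that of EGR1, IER2 and ZFP36 were sought by Pearson's r of log2(value + 1) over the 10724 genes averaging 100 scaled reads or more. For EGR1 they were PGM2 (r = 0.981), AC103702.2 (0.975) and PHLDA2 (0.973). For IER2 they were PRRT1B (0.995), PCDH7 (0.991) and JUP (0.990), and for ZFP36 they were MXD1 (0.993), RNF14 (0.989) and STARD4 (0.980). The points share their 2 groups, and such values of r over 6 libraries are a description only.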

How the data were processed

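RNA sequencing was done by a company on 6 libraries, 3 per group, which were assigned by their sample titles. The submitters' processing notes name CASAVA, HISAT2 (version 2.0.5) and hg38; the gene counter and its strand setting are not given in the sources used here. The authors deposited a signal, obtained by dividing each library's reads per gene by its size factor. The table also holds the authors' group means and columns of their comparison (log2 fold change, p-value and adjusted p-value), which were not used.

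limma (version 3.58.1, R 4.3.3; eBayes with trend and robust moderation) was fitted to log2(value + 1) of the 15076 genes that reached 10 in 3 or more libraries, with Benjamini-Hochberg adjustment over all of them. Fold changes are on this scale, which understates the change of low genes. Called means an adjusted p under 0.05 with no minimum fold. In all 6 libraries 100% of values were whole multiples of a step (tolerance 0.01). In vector replicate 1 and nPD-L1 replicate 2 the step (1.009 and 1.011) lies so near 1 that recovered reads were not accepted. The other 4 were used as whole reads, and DESeq2 (version 1.42.0), edgeR (version 4.0.16) and limma were run on them as alternatives. Ratios between 2 members were compared by exact two-sided permutation tests.

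The members and gene lists were chosen with earlier results of these data known. Named were all members, the 3 called genes with the highest and the 3 with the lowest log2 fold change of each list, the label checks, and the 3 genes most like EGR1, IER2 and ZFP36; uncalled genes given for their role (SRF, FOS, TGFB1, WT1, ZFP36L2, HSPA1A and HSPA1B), and other genes beyond this rule, were chosen after their values were seen. Some single genes under this rule are left out of the text. AFP, COL3A1, CD3E, HBA1 and CDH5 were on the marker lists, but no row was found for them in the expression table. Promoters came from RefSeq (GRCh38.p14), and 3′ UTRs from the gene annotation with the GRCh38 genome. Alternatives were other scalings, filters and pseudocounts, non-robust moderation, a block on the replicate number, the omission of each library in turn and a fold minimum.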

Additional observations from a re-analysis of the deposited data

How the results depend on the processing

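EGR2, NAB2, IER3 and ZFP36L1 were called in all 17 alternatives and ZFP36 in none (adjusted p of 0.481 to 1). IER5 was called in 15, NAB1 in 11, EGR1 in 10 and IER2 in 8, always in the same direction. With upper-quartile scaling, which moved the median log2 fold change of all genes by -0.05, EGR1 (0.82) and IER2 (0.50) were no longer called. On the 4 libraries with recovered reads, limma gave 4 members higher and 0 lower, with EGR1 (0.97), NAB1 (0.50), IER2 (0.56) and IER5 (-0.74) no longer called, 0 CCR4-NOT genes, 5 AU-rich mRNAs and 281 genes in all (229 higher, 52 lower); edgeR gave 4 and 0, with EGR1 (0.98), NAB1 (0.51), IER2 (0.54) and IER5 (-0.73) lost, 0, 5 and 288 (234 and 54); DESeq2 lost NAB1 (0.50) and IER2 (0.54), with 0 CCR4-NOT genes and 397 in all (314 and 83). Fewer libraries enter these fits. Over the alternatives the adjusted p was 0.0037 to 0.153 for EGR1, 0.00092 to 0.436 for NAB1, 0.00052 to 0.467 for IER2 and 8.6e-05 to 0.0763 for IER5. With a log2 fold change of at least 1, 4 members were higher and 0 lower, with 1 gene called of the SRF list, 11 of the other immediate-early genes, 0 CCR4-NOT genes, 0 stress genes and 374 in all (306 and 68). Leaving out each library gave 4 to 7 members higher (4 without vector replicate 1 and 4 without nPD-L1 replicate 3), 1 lower, 408 to 1033 genes in all (331 to 791 higher, 76 to 242 lower), 5 to 11 AU-rich mRNAs, 0 to 2 CCR4-NOT genes (2 without vector replicate 3), 0 to 2 stress genes (2 without vector replicate 2), 18 to 19 other immediate-early genes and 8 to 9 genes with EGR1 sites; log2 fold changes ranged from 0.66 to 1.04 for EGR1, 0.52 to 0.61 for NAB1 and 0.42 to 0.67 for IER2. The difference in the log2 ratio of EGR1 to EGR3 was -1.23 to -0.18 when leaving out a library, -1.87 with a pseudocount of 0.1 and 0.37 with a pseudocount of 10, since EGR3 lies near 0. Same-numbered libraries deviated together with r = -0.013, 0.229 and 0.131, and libraries of other numbers with r from -0.219 to 0.079. These values do not settle whether the numbers pair the libraries. With the replicate number as a block, 7 members were higher and 1 lower. That fit gave 3 CCR4-NOT genes, 2 stress genes and 1185 genes in all (927 higher and 258 lower), against 748 without the block. Of 409 alternative values for 26 results, 327 were counted as unchanged. For fold changes this meant the same direction and side of the threshold, and for counts a value within 1.5 times the reported one. For the 5 ratios between members it meant a shift smaller than the larger group SD, whatever the direction or p. The cause of a change between the groups was not tested. Depth limits EGR3, EGR4 and the lineage markers that stood near 0.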
